A study of Mus musculus with 10 samples.

Results

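The genes of MHC class II presentation were followed in lineage-negative (Lin−) bone marrow cells through 10 members: the classical chain genes H2-Aa, H2-Ab1 and H2-Eb1, the invariant chain gene Cd74, the transactivator gene Ciita, the H2-DM genes H2-DMa, H2-DMb1 and H2-DMb2, and the H2-DO genes H2-Oa and H2-Ob. The members were chosen by name, with earlier results of these data known. All 10 were found by symbol among the 55359 genes of the table, and all 10 reached a mean of 0.1 FPKM (fragments per kilobase of transcript and per unit of sequencing depth) and so were among the 18742 genes tested.

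RNA-seq of Lin− cells was used to compare 5 libraries from Dhx9f/f mice, called WT, with 5 from Dhx9f/f;MX1 mice, called cKO. The labels number the libraries as replicates without naming the animals, so if some share a mouse or a pool, the p-values measure only the spread between these samples. Both groups carry the floxed Dhx9 allele. The cKO mice also carry MX1-Cre, whose promoter responds to interferon and which the study switched on with poly(I:C), a double-stranded RNA mimic that itself triggers interferon. Whether the WT mice that were sequenced also received poly(I:C) is not given in the sources used here, so the genotype and the injection cannot be told apart if they did not. The strain, age and sex of the sequenced mice are not given there either, beyond a general remark in the methods that sex was randomized. Lin− cells are what is left after antibody depletion of mature blood cells, so they are a mixture of progenitors and of any mature cell that escaped depletion.

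MHC class II molecules are pairs of an α and a β chain that show peptides from taken-up proteins to CD4+ T cells. The pairs are built in the endoplasmic reticulum around the invariant chain CD74, which fills the peptide groove and steers the complex to endosomes, where cathepsins trim it to a short remnant called CLIP. H2-DM then swaps CLIP for other peptides, and H2-DO, found mainly in B cells and some dendritic cells, holds H2-DM in check. CIITA, a coactivator that does not bind DNA itself, switches the whole set on by docking on factors held at the X and Y boxes of their promoters. Dendritic cells, B cells and macrophages are the usual bone marrow sources of these transcripts.

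Of the members, 8 lay within 224.335 kb of chromosome 17, between positions 34311314 and 34535648 of GRCm39, the build of the deposited values. Ciita lay on chromosome 16, from 10297923 to 10347694 on the plus strand, and Cd74 on another chromosome. The 150 bases upstream of the canonical transcript start are shown 5′ to 3′ on the gene's own strand for the classical chain genes and for the H2-DM and H2-DO genes that changed with non-overlapping groups and held Y box letters near their start. They are printed in lower case, from the GRCm39 reference sequence, with the X box letters AGCAAC and the Y box letters GATTGG, or their reverse complements, in capitals.
H2-Aa (chr17:34506798-34506947, minus strand): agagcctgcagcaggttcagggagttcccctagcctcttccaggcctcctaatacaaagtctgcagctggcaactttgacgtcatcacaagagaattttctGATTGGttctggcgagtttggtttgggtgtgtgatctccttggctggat
H2-Ab1 (chr17:34482033-34482182, plus strand): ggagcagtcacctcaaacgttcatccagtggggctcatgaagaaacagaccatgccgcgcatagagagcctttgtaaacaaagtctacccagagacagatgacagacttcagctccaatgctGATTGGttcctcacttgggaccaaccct
H2-Eb1 (chr17:34524663-34524812, plus strand): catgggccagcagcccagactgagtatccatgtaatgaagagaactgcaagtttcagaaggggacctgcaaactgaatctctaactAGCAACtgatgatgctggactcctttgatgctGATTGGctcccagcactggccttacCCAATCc
H2-DMa (chr17:34354410-34354559, plus strand): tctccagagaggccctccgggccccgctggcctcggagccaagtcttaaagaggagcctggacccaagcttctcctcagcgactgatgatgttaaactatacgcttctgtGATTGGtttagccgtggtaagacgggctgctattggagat
H2-DMb2 (chr17:34364024-34364173, plus strand): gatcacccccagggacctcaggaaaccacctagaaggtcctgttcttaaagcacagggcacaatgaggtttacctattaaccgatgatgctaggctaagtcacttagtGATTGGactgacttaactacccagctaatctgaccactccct
H2-Ob (chr17:34457686-34457835, plus strand): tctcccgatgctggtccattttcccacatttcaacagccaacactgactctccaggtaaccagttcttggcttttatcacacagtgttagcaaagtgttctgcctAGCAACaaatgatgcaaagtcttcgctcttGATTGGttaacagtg

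In the 200 bases upstream of the start, on either strand, 6 of 10 members held the Y box letters, against 14.8% of 21770 protein-coding genes. The 6 were H2-Aa, H2-Ab1, H2-Eb1, H2-DMa, H2-DMb2 and H2-Ob, and the forward copies began 15 to 49 bases before the start. The X box letters were held by 3 of 10 members (H2-Oa, H2-Ob and H2-Eb1), against 9.67% of all genes. Both sets of letters occurred together in H2-Ob and H2-Eb1, 2 of 10 members, against 1.34% of all genes. In H2-Ob the X box letters spanned bases 45 to 40 before the start and the Y box letters bases 15 to 10. The PU.1 letters GAGGAAGT (1.77% of all genes) and the letters of the interferon-stimulated response element, GAAA and GAAA with 2 free bases between them (2.44%), were in none of the 10 windows. These matches are a description of short letter strings, and a window without one says only that these exact letters are not in it.

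The libraries held about 13791349 to 18822285 fragments (median 15906995), as estimated from the steps between the low FPKM values. At that depth 3 fragments in a transcript of 1 kb corresponded to 0.159 to 0.218 FPKM. The targeted gene went against the labels: Dhx9 was at 65.4 to 72.4 FPKM in the WT libraries and at 131 to 156 FPKM in the libraries labelled cKO, with a log2 fold change of 1.0 (limma adjusted p = 1.39e-05). The study itself reported reduced DHX9 expression in bone marrow cells of Dhx9f/f;MX1 mice, by qRT-PCR and western blot. The FPKM do not show which part of Dhx9 the reads cover, so the directions below are those of the libraries labelled cKO against WT. Xist, the transcript of the inactive X chromosome, was at 99.2 to 128 FPKM in 3 WT libraries and at most at 0.09 FPKM in the other 7 libraries.

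In the libraries labelled cKO, the peptide exchange machinery of the class II pathway was low in all 5 libraries. H2-Aa, H2-Eb1 and Cd74 differed strongly from library to library, and H2-Ab1 had the log2 fold change of the smallest size. Of the 10 members, 6 were called lower and 0 higher in limma, where a call needed an adjusted p under 0.05 together with a 2-fold change. Over all genes tested, that rule called 16.8% lower and 4.6% higher. The 6 were Cd74, H2-DMa, H2-DMb1, H2-DMb2, H2-Oa and H2-Ob. By the adjusted p alone, 7 of 10 were lower, with Ciita added, and 0 higher, against 28.3% and 16.7% of all genes tested. The median log2 fold change of the 10 members was −1.85, beside −0.11 for all genes tested. The groups did not overlap in 5 of 10 members, the H2-DM and H2-DO genes, each lower in the libraries labelled cKO, while 21.6% of all genes tested were lower without overlap. In bulk RNA, fewer cells of a type and less RNA per cell cannot be told apart, and this holds for each gene below.

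**Figure D1:**
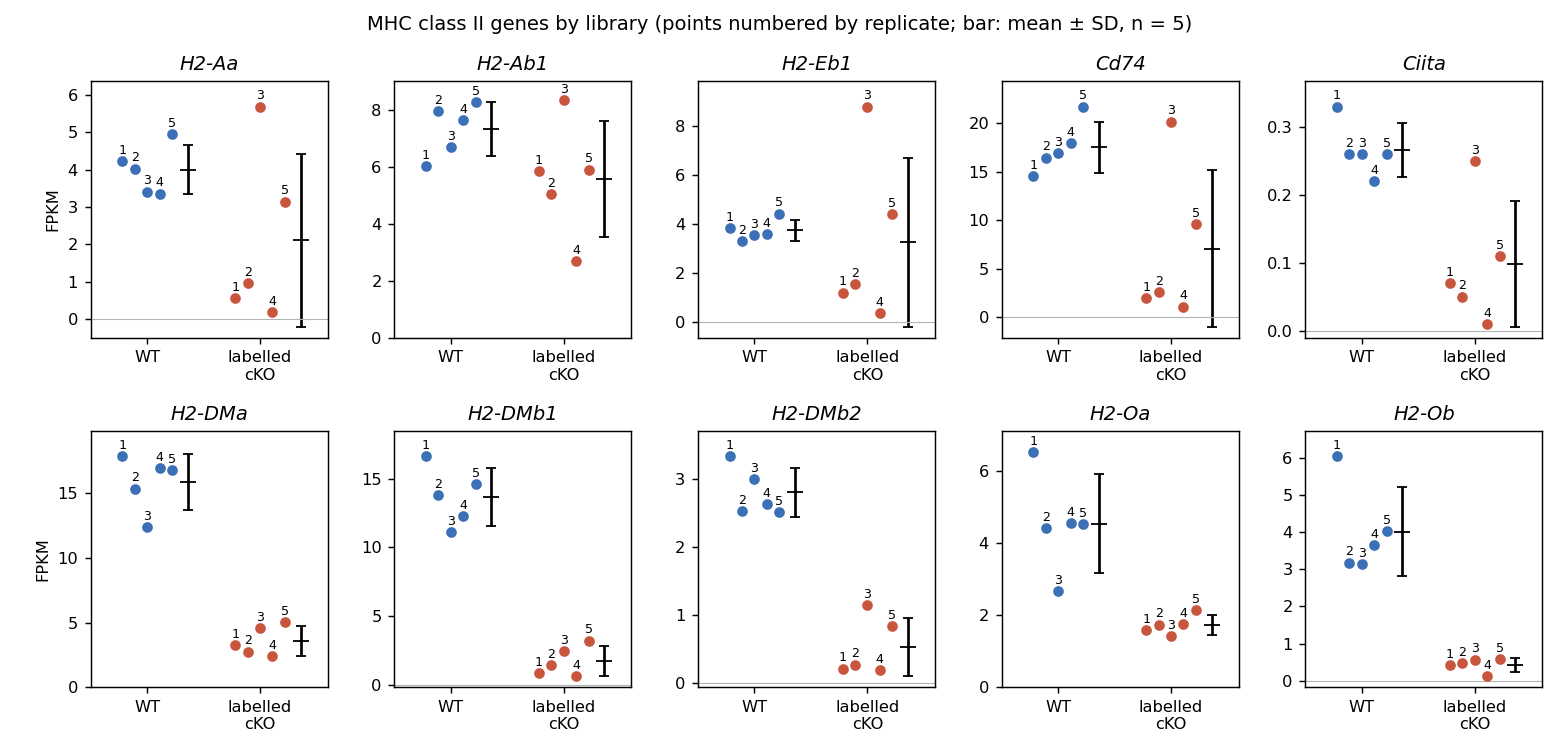
FPKM of each of the 10 class II genes in the 5 WT libraries (blue) and the 5 libraries labelled cKO (red), with each point numbered by its replicate and bars giving the mean ± SD (n = 5). All 5 cKO points lie below all 5 WT points for the H2-DM and H2-DO genes in the lower row, while in the upper row cKO 3 reaches the WT range or lies above it.

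**Figure D2:**
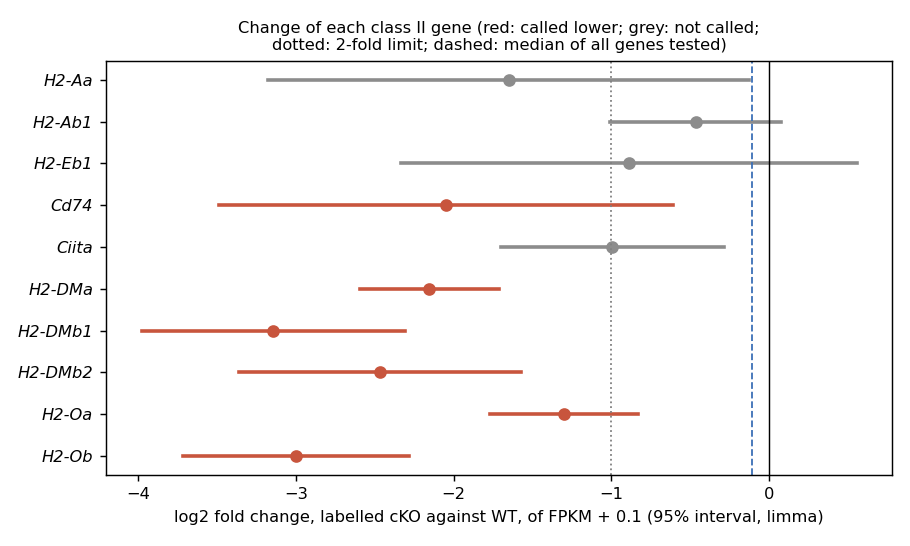
Log2 fold change of FPKM + 0.1 for each class II gene (dot) with its 95% interval from limma (line), red where the gene was called lower and grey where it was not; the dotted line is the 2-fold limit and the dashed line the median of all genes tested, −0.11. The intervals of H2-DMa, H2-DMb1, H2-DMb2 and H2-Ob lie wholly below the 2-fold limit, and those of H2-Ab1 and H2-Eb1 include 0.

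H2-DM, the catalyst of peptide exchange, is a dimer of the α chain encoded by H2-DMa and a β chain encoded by H2-DMb1 or H2-DMb2. H2-DMa was at 17.9, 15.3, 12.4, 16.9 and 16.8 FPKM in WT 1 to 5 and at 3.25, 2.77, 4.55, 2.39 and 5.03 FPKM in cKO 1 to 5. The highest cKO library, cKO 5, lay below the lowest WT library, WT 3, by a wide margin. The log2 fold change was −2.15 (SE 0.199, 95% interval −2.59 to −1.71, limma adjusted p = 5.28e-05), and the cKO mean was 22.7% of the WT mean. H2-DMb1 was at 16.6, 13.8, 11.1, 12.3 and 14.6 FPKM in WT 1 to 5 and at 0.86, 1.45, 2.45, 0.60 and 3.21 FPKM in cKO 1 to 5. It had the most negative change of the 10 members, at −3.14 (SE 0.378, limma adjusted p = 1.44e-04), with 12.5% of the WT mean left. H2-DMb2 was at 3.33, 2.52, 3, 2.63 and 2.51 FPKM in WT 1 to 5 and at 0.21, 0.27, 1.14, 0.19 and 0.83 FPKM in cKO 1 to 5. Its groups did not overlap either, although cKO 3 and cKO 5 stood well above the other 3 cKO libraries. Its values in cKO 1, cKO 2 and cKO 4 correspond to only about 4, 7 and 4 fragments. Its log2 fold change was −2.47 (SE 0.405, limma adjusted p = 6.77e-04). Each of these 3 differences gave an exact two-sided permutation p of 0.00794, the smallest that 5 against 5 libraries can give. H2-DMb1 and H2-DMb2 are close copies: 19.1% of the 75-base windows of the H2-DMb1 mRNA also occur in that of H2-DMb2, so how reads were split between both copies is uncertain for that share. H2-DMa shares 510 exon bases, 11.8% of its exons, with Brd2 on the opposite strand, and whether reads were counted by strand is not given in the sources used here.

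H2-DO, the inhibitor of H2-DM, is a dimer of the products of H2-Oa and H2-Ob. H2-Ob was at 6.04, 3.18, 3.14, 3.66 and 4.02 FPKM in WT 1 to 5 and at 0.43, 0.48, 0.57, 0.12 and 0.58 FPKM in cKO 1 to 5. All 5 cKO libraries lay below 0.6 FPKM and all 5 WT libraries above 3, and the log2 fold change was −3.0 (SE 0.325, limma adjusted p = 9.71e-05). H2-Oa was at 6.53, 4.41, 2.67, 4.56 and 4.54 FPKM in WT 1 to 5 and at 1.59, 1.74, 1.42, 1.76 and 2.14 FPKM in cKO 1 to 5. WT 3, the lowest WT library, came close to cKO 5, yet the groups stayed apart. H2-Oa changed by −1.30 (SE 0.213, limma adjusted p = 6.60e-04), so that 38.1% of the WT mean was left, against 10.9% for its partner H2-Ob. The call for H2-Oa ended at a pseudocount of 1 (−0.99) and after quantile normalization (−0.88), where it missed the 2-fold limit. H2-Oa was also the steadiest member among the cKO libraries, with a highest value 1.51 times the lowest. An antisense transcript, BC051537, covers 25.9% of the H2-Oa exon bases.

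The classical chain genes encode the peptide-binding dimers, I-A from H2-Aa and H2-Ab1 and the β chain of I-E from H2-Eb1. H2-Aa was at 4.22, 4.03, 3.41, 3.36 and 4.95 FPKM in WT 1 to 5 and at 0.55, 0.95, 5.69, 0.18 and 3.14 FPKM in cKO 1 to 5. Thus cKO 3 exceeded every WT library, cKO 5 lay just under the lowest of them, and the other 3 lay below 1 FPKM. The log2 fold change of −1.65 had a wide interval, from −3.17 to −0.13, and missed the threshold (limma adjusted p = 0.0736). H2-Eb1 was at 3.83, 3.29, 3.53, 3.57 and 4.41 FPKM in WT 1 to 5 and at 1.19, 1.53, 8.78, 0.34 and 4.39 FPKM in cKO 1 to 5. Here cKO 5 lay within the WT range and cKO 3 above it, and the change of −0.89 (interval −2.33 to 0.56) was not called (limma adjusted p = 0.299). H2-Ab1 was at 6.01, 7.96, 6.70, 7.64 and 8.28 FPKM in WT 1 to 5 and at 5.85, 5.05, 8.35, 2.69 and 5.90 FPKM in cKO 1 to 5. Its log2 fold change was the smallest in size of the 10 members, −0.47 (interval −1.01 to 0.08, limma adjusted p = 0.149). By mean FPKM, H2-Eb1 differed less, with 87.1% of the WT mean left against 76.1% for H2-Ab1. For H2-Ab1, 3 cKO libraries, cKO 1, cKO 2 and cKO 5, lay between 5 and 6 FPKM, under the lowest WT library. Without cKO 3 the change of H2-Aa was −2.19 (limma adjusted p = 0.0115), and without cKO 5 it was −1.98 (limma adjusted p = 0.0425), and both were called. H2-Aa and H2-Eb1 share 118 exon bases on opposite strands. The value of H2-Aa in cKO 4, 0.18 FPKM, corresponds to about 3 fragments. In the shallowest library, cKO 1, 3 fragments would correspond to 0.193 FPKM.

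Cd74, on chromosome 18, encodes the invariant chain and had the highest mean of the 10 members in both groups, although in cKO 1, cKO 2 and cKO 4 it lay below H2-Ab1. It was at 14.6, 16.5, 16.95, 17.99 and 21.7 FPKM in WT 1 to 5 and at 1.98, 2.63, 20.2, 1.12 and 9.62 FPKM in cKO 1 to 5. The groups overlapped, since cKO 3 exceeded every WT library but WT 5, while the other 4 cKO libraries lay below every WT library. The log2 fold change was −2.05 (SE 0.652, interval −3.49 to −0.61, limma adjusted p = 0.0248), which was called lower. That call was lost when the 3 WT libraries with Xist were marked by a covariate, where the change was −1.88 (limma adjusted p = 0.141). It was also lost without WT 5 (−1.97), cKO 1 (−1.79), cKO 2 (−1.89) or cKO 4 (−1.60), with limma adjusted p between 0.0517 and 0.0593.

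Ciita, the master switch of the set, was the scarcest member. It was at 0.33, 0.26, 0.26, 0.22 and 0.26 FPKM in WT 1 to 5 and at 0.07, 0.05, 0.25, 0.01 and 0.11 FPKM in cKO 1 to 5. Again cKO 3 lay within the WT range and the other 4 cKO libraries below it. On its long mRNA these values correspond to about 29 to 41 fragments in WT and about 1 to 30 in the libraries labelled cKO. The change of −0.99 (SE 0.321, interval −1.70 to −0.28) had a limma adjusted p of 0.0267 but fell just short of the 2-fold limit, so Ciita was not called. The added 0.1 FPKM is large beside these levels and shrinks the fold: with 0.01 FPKM added, the change was −1.80 (limma adjusted p = 0.0418) and was called. It was also called without WT 4 (−1.04), cKO 3 (−1.23) or cKO 5 (−1.04) and with equal library sums (−1.01). Its adjusted p was above 0.05 after quantile normalization (−0.48, limma adjusted p = 0.154) and with the Xist covariate (−1.10, limma adjusted p = 0.0827). It was so too without WT 1, WT 2, WT 5, cKO 2 or cKO 4 (−0.997 to −0.81, limma adjusted p 0.0504 to 0.0630).

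The cKO libraries kept much the same order from member to member. Library cKO 4 was the lowest for 9 of 10 members, all but H2-Oa. Library cKO 3 was the highest for 6 members (H2-Aa, H2-Ab1, H2-Eb1, Cd74, Ciita and H2-DMb2) and cKO 5 for the other 4. The members differed in how far these libraries spread. The highest cKO value was 31.6 times the lowest for H2-Aa, 25.8 times for H2-Eb1 and 18.03 times for Cd74, and it was 25 times for the scarce Ciita. It was 6 times for H2-DMb2, 5.35 times for H2-DMb1, 4.83 times for H2-Ob, 3.10 times for H2-Ab1, 2.10 times for H2-DMa and 1.51 times for H2-Oa, so the classical chain H2-Ab1 lay among the H2-DM and H2-DO genes in this respect. Among the WT libraries this ratio was at most 2.45, in H2-Oa. Several of the cKO ratios are rough, because the cKO 4 values under them rest on few fragments. These are about 1 for Ciita, 3 for H2-Aa, 4 for H2-DMb2, 5 for H2-Ob and 9 for H2-Eb1. In WT, WT 1 was the highest for 6 members and WT 5 for the other 4.

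By mean level per transcript length, the order in WT was Cd74 (17.6 ± 2.65 FPKM, SD, n = 5), H2-DMa (15.9 ± 2.14), H2-DMb1 (13.7 ± 2.13), H2-Ab1 (7.32 ± 0.940), H2-Oa (4.54 ± 1.37), H2-Ob (4.01 ± 1.19), H2-Aa (3.99 ± 0.654), H2-Eb1 (3.73 ± 0.428), H2-DMb2 (2.80 ± 0.358) and Ciita (0.266 ± 0.0397). Only the steps from H2-DMb1 to H2-Ab1 and from H2-DMb2 to Ciita separated neighbours whose ranges did not overlap. In the libraries labelled cKO the order was Cd74 (7.11 ± 8.06 FPKM, SD, n = 5), H2-Ab1 (5.57 ± 2.03), H2-DMa (3.598 ± 1.14), H2-Eb1 (3.25 ± 3.45), H2-Aa (2.10 ± 2.31), H2-Oa (1.73 ± 0.267), H2-DMb1 (1.71 ± 1.10), H2-DMb2 (0.528 ± 0.432), H2-Ob (0.436 ± 0.187) and Ciita (0.098 ± 0.0923). There every pair of neighbours overlapped. H2-DMb1 moved from the third place to the seventh and H2-Ab1 from the fourth to the second.

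Ratios of a pair of members within 1 library depend little on how that library was scaled where both values are large beside the added 0.1 FPKM, which is not so for Ciita. In all, 5 such ratios were tested by exact two-sided permutation tests with Benjamini-Hochberg adjustment over the 5. The H2-DMa to H2-Ab1 log2 ratio ran from 0.88 to 1.56 in WT and from −0.86 to −0.16 in the libraries labelled cKO. So the FPKM of H2-DMa exceeded that of H2-Ab1 in all 5 WT libraries and was lower in all 5 cKO libraries. The mean difference was −1.69 (exact permutation p = 0.00794, adjusted p = 0.0265). The side of 0 on which a ratio lies also depends on the gene lengths used, which are not given in the sources used here. The Cd74 to H2-Ab1 log2 ratio was 1.25 ± 0.130 (SD, n = 5) in WT and −0.33 ± 1.23 in the libraries labelled cKO. The difference was −1.58 (exact permutation p = 0.0238, adjusted p = 0.0298), but cKO 3 lay at 1.26, within the WT range. The H2-Aa to H2-Ab1 log2 ratio, of the α and β chains of one dimer, was −0.86 ± 0.253 (SD, n = 5) in WT. In cKO 1, cKO 2 and cKO 4 it was −3.19, −2.29 and −3.32, whereas cKO 3 and cKO 5, at −0.55 and −0.89, lay within the WT range of −1.16 to −0.50. The mean difference of −1.19 missed the threshold (exact permutation p = 0.135, adjusted p = 0.135). The H2-Oa to H2-DMa log2 ratio, of the inhibitor's α chain to that of the catalyst, was higher in the libraries labelled cKO by 0.85 (exact permutation p = 0.0159, adjusted p = 0.0265), with means of −0.97 ± 0.468 against −1.82 ± 0.263 (SD, n = 5) and overlapping ranges. This covers 1 of both H2-DO chains only: H2-Ob, the other, had a more negative change than H2-DMa (−3.0 against −2.15), and its ratio to H2-DMa was not tested. The Ciita to H2-Ab1 log2 ratio was −4.34 in WT and −4.87 in the libraries labelled cKO (difference −0.53, exact permutation p = 0.0159, adjusted p = 0.0265), but the size followed the pseudocount: the difference was −1.33 with 0.01 and 0.19, of the opposite sign, with 1. The smallest p left with 9 libraries is 0.0159, so a ratio easily loses its call there. Without WT 3, WT 5, cKO 1, cKO 2, cKO 4 or cKO 5 all 4 called ratios missed the threshold, and without WT 1 those of Cd74 and Ciita did (exact permutation tests, adjusted p 0.0529 to 0.0595).

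**Figure D3:**
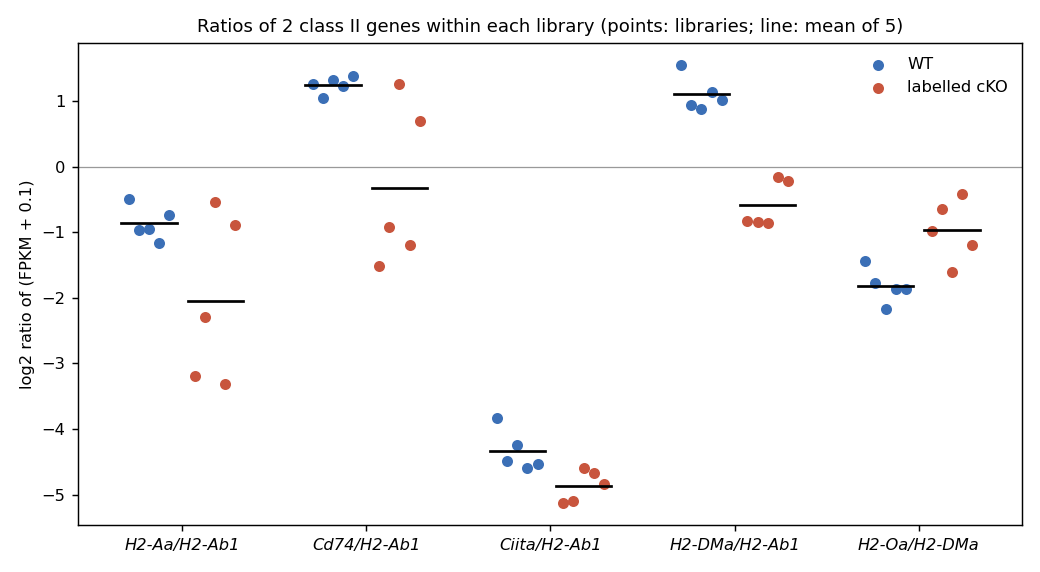
Log2 ratio of FPKM + 0.1 for 5 pairs of class II genes, with 1 point per library (blue WT, red labelled cKO) and black lines for the mean of 5. For H2-DMa over H2-Ab1 the groups lie on opposite sides of 0, whereas for H2-Aa over H2-Ab1 cKO 3 and cKO 5 lie among the WT points.

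On chromosome 17 the members are interleaved with genes of other pathways. Of 6 such neighbours 5 were tested, with 2 called lower, against 16.8% of all genes tested. The 2 were Psmb8 (−1.11, limma adjusted p = 0.00125) and Psmb9 (−1.08, limma adjusted p = 0.00849), which encode subunits of the immunoproteasome and serve class I. The transporter genes Tap1 (−0.51, limma adjusted p = 0.127) and Tap2 (−0.29, limma adjusted p = 0.0154) were not called, nor was the bromodomain gene Brd2 (0.06, limma adjusted p = 0.536). Brd2 lies next to H2-DMa, so genes with changes of −2.15 and 0.06 sit side by side. Btnl2 was at most at 0.08 FPKM and was not tested. Of the class II paralogs on the list, H2-Ea was listed at 0 in all 10 libraries, so the table lists no α chain transcript of I-E beside H2-Eb1. H2-Eb2 was at 0.06 to 0.15 FPKM in WT and at 0 to 0.29 FPKM in the libraries labelled cKO and was not tested.

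**Figure D4:**
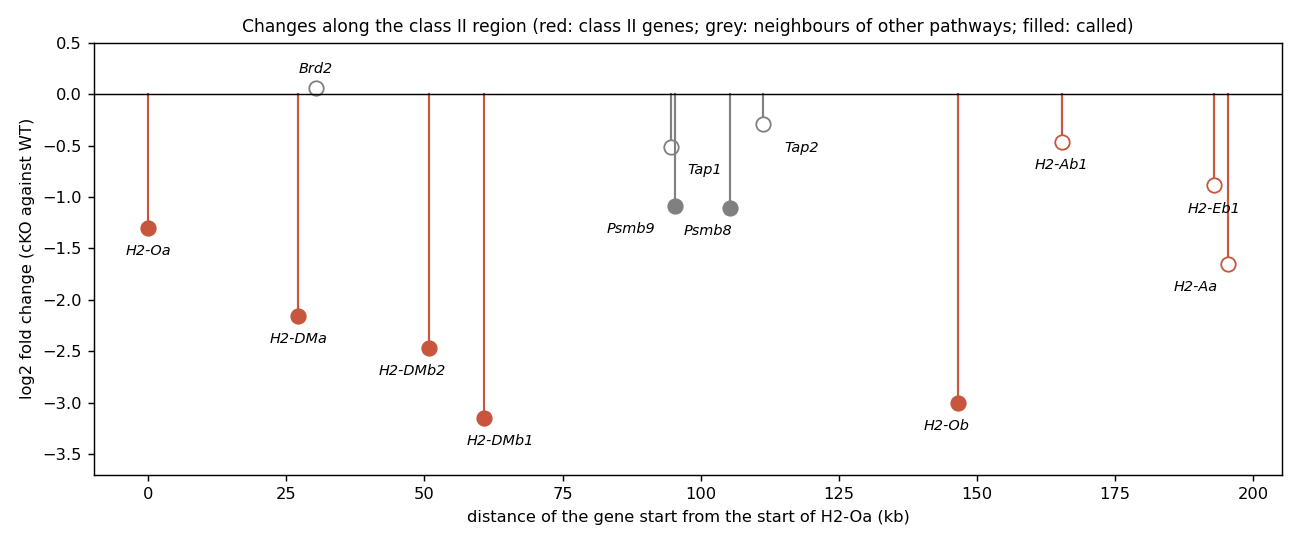
Log2 fold change (cKO against WT) of the class II genes (red) and their neighbours of other pathways (grey) against the distance of each gene's start from that of H2-Oa in kb, with filled circles for called genes. The H2-DM and H2-DO genes are called on either side of Tap1, Tap2 and Brd2, which are not, and the classical chain genes at the right end are open circles.

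The other genes of the pathway were taken from a list of 35 by role, of which 34 were in the table and 31 were tested. Of these, 12 were called lower and 1 was called higher, against 16.8% and 4.6% of all genes tested. The median log2 fold change was −0.80. Among 15 regulators, 4 were called lower and 0 higher, beside the same shares of all genes. Irf8, a transcription factor of dendritic cells and monocytes, was at 53.7, 43.3, 38.1, 47.2 and 48.7 FPKM in WT 1 to 5 and at 0.38, 0.42, 5.41, 0.09 and 10.2 FPKM in cKO 1 to 5. It fell by 5.24 on the log2 scale (limma adjusted p = 0.00127), and cKO 3 and cKO 5 were again the 2 highest cKO libraries. Spi1, which encodes PU.1, changed by −1.73 (limma adjusted p = 4.64e-05), and Irf1, an interferon-responsive activator of Ciita, by −2.05 (limma adjusted p = 0.00181). Irf4, at most at 0.93 FPKM, changed by −1.69 (limma adjusted p = 0.00669). Of the X box factors, Rfx5 had a log2 fold change of −0.88 (limma adjusted p = 5.32e-04), short of the 2-fold limit, while Rfxap (−0.04) and Rfxank (−0.35) missed the p threshold. Of the Y box factors, Nfya was at −0.80 (limma adjusted p = 0.00361), short of the 2-fold limit, and Nfyb (0.13) and Nfyc (−0.12) missed the p threshold. The acetyltransferase genes Crebbp (−0.12) and Ep300 (−0.37) were not called.

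Of 9 genes for peptide-making enzymes and their regulators, 5 were called lower and 1 higher, against 16.8% and 4.6% of all genes tested. Ctss, the cathepsin that makes the last cut of the invariant chain in dendritic cells and B cells, was at 79.0, 58.2, 55.3, 76.5 and 81.4 FPKM in WT 1 to 5 and at 3.83, 1.93, 15.4, 0.44 and 17.6 FPKM in cKO 1 to 5. The groups did not overlap, and the change was −4.07 (limma adjusted p = 0.00218). Ctsl, the cathepsin that makes this cut in thymic epithelium, was at 3.64, 4.16, 3.69, 3.53 and 4.16 FPKM in WT 1 to 5 and at 6.38, 12.4, 12.99, 9.46 and 7.39 FPKM in cKO 1 to 5. It rose in all 5 cKO libraries, by 1.27 (limma adjusted p = 3.98e-04). The other 4 genes called lower were Ctsh (−4.04), the cystatin gene Cst3 (−1.88), the asparaginyl endopeptidase gene Lgmn (−1.60) and Ifi30 (−1.37), which encodes the lysosomal thiol reductase GILT. The lysosomal proteases Ctsb (−0.83) and Ctsd (−0.14) and Sppl2a, which clears the last membrane stub of the invariant chain, (−0.45) were not called.

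Of 7 genes tested for class II turnover and costimulation, 3 were called lower and 0 higher, against 16.8% and 4.6% of all genes tested. Marchf1, the ubiquitin ligase that removes class II from the surface of dendritic cells and B cells, was at 2.80 to 4.25 FPKM in WT and at 0.08 to 0.96 FPKM in the libraries labelled cKO (−2.87, limma adjusted p = 5.20e-04). Its relative Marchf8 had the opposite sign, 0.65 (limma adjusted p = 3.599e-04), short of the 2-fold limit but with groups that did not overlap. The costimulatory gene Cd86 changed by −2.26 (limma adjusted p = 0.00312), whereas Cd80, its companion, was at 0.22 (limma adjusted p = 0.662). Cd63 was called lower (−1.80), Cd83 (−0.94, limma adjusted p = 0.0791) and Cd82 (0.12) were not, and Cd40 was too low to be tested.

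Many markers of the cell types that carry class II were also lower in the libraries labelled cKO, though not all. Over all genes tested, 16.8% were called lower and 4.6% higher. Of 12 dendritic markers, 7 were called lower and Cd24a was called higher, and the median log2 fold change was −2.48. Without Cd24a, which other cells of the marrow also express, they summed to 60.3 to 80.2 FPKM in WT and to 5.42 to 19.5 FPKM in the libraries labelled cKO. With it the sums were 315 to 501 and 666 to 1117 FPKM. Clec9a, a marker of type 1 dendritic cells, was at 6.18 to 10.4 FPKM in WT and at 0 to 0.79 FPKM in the libraries labelled cKO, and Cd209a at 4.90 to 8.90 and 0 to 0.24 FPKM. The 4 dendritic markers not called were Zbtb46 (−0.32), Batf3 (−0.38), Xcr1 (−0.81) and Ccr7 (−1.39), whose groups overlapped. Siglech, the plasmacytoid marker, was listed at 0 in cKO 1, cKO 2 and cKO 4. Of 12 monocyte and macrophage markers, 10 were called lower (median −3.26), and their sums were 859 to 1508 FPKM in WT and 9.70 to 257 FPKM in the libraries labelled cKO. None of the monocyte markers was at 0 in any library.

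Of 12 B-lymphoid markers, 11 were in the table and 9 were tested. Of these, 4 were called lower (Cd79b, Blnk, Cd22 and Igll1), against 16.8% of all genes tested, and the median was −1.03. Their sums were 12.7 to 18.5 FPKM in WT and 1.33 to 10.7 FPKM in the libraries labelled cKO. Igll1 was at 0 in cKO 1, cKO 2 and cKO 4, and Ms4a1 in cKO 4 and WT 1. Of the 11 B-lymphoid markers, 7 in cKO 3 and 6 in cKO 5 were at or above the lowest WT library, against 2, 4 and 1 in cKO 1, cKO 2 and cKO 4. For the 12 dendritic markers the numbers were 4 in cKO 3 and in cKO 5, against 2, 2 and 1. Cd24a counts in each of these, since it was above every WT library in all 5 cKO libraries. For the 12 monocyte and macrophage markers the numbers were 2 in cKO 3 and in cKO 5, against 0, 0 and 0. Thus the cKO libraries with the highest classical chain levels also had the most markers of each kind within or above the WT range. The mean log2 level of the classical chains and Cd74 was 2.63 to 3.01 in WT and 0.84, 1.15, 3.28, −0.31 and 2.43 in cKO 1 to 5. That of the H2-DM and H2-DO genes was 2.39 to 3.07 in WT and −0.03, 0.16, 0.78, −0.45 and 0.92 in cKO 1 to 5. In cKO 3 and cKO 5, then, the classical chains and Cd74 stood near or above the WT level while H2-DM and H2-DO stayed well below it, as did the dendritic markers at 0.54 and 0.65 against 2.05 to 2.19. The part of these cell types in the class II values was not tested.

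**Figure D5:**
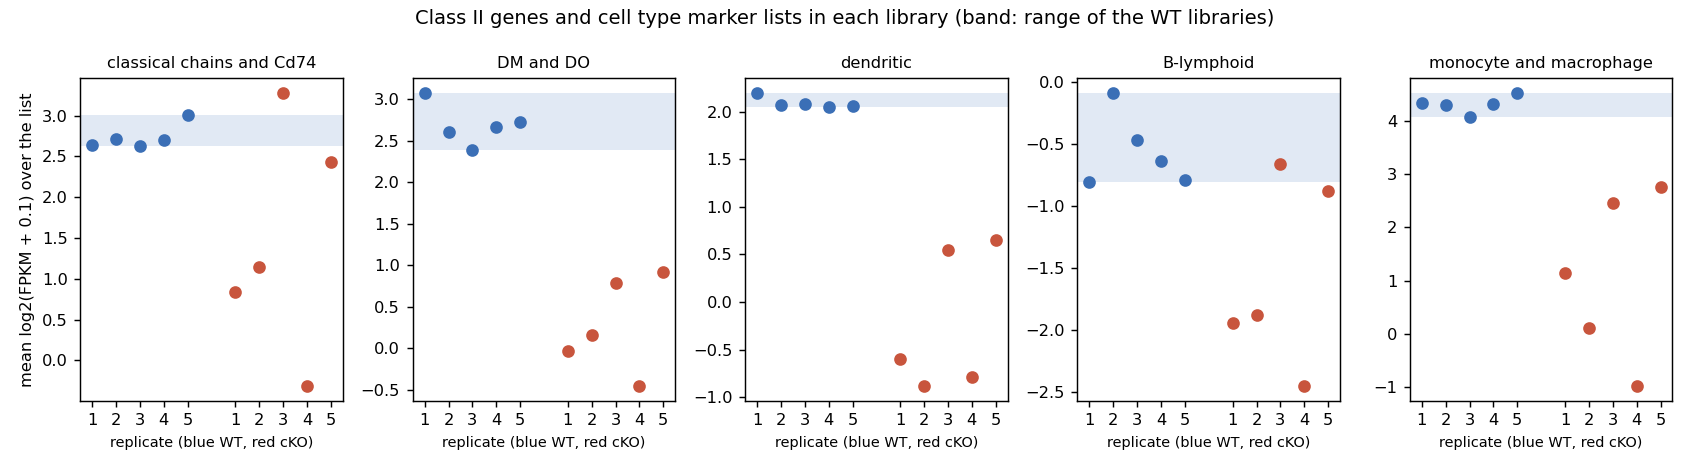
Mean log2(FPKM + 0.1) of the classical chains with Cd74, of the H2-DM and H2-DO genes and of the dendritic, B-lymphoid and monocyte marker lists in each library (blue WT, red cKO), with a band for the WT range. The cKO 3 point is above the band for the classical chains (3.28) and within it for the B-lymphoid markers (−0.66), and below it in the other 3 panels.

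The lineage-negative label was checked on surface genes of mature cells. The granulocyte gene Ly6g was at most at 0.51 FPKM in WT and at 1.32 FPKM in cKO 3, and the T cell gene Cd3e was at most at 0.15 FPKM in WT and at 0.60 FPKM in cKO 3. Both were thus highest in cKO 3, the library with the highest H2-Aa, H2-Eb1 and Ciita among the cKO libraries, and the part of these cells was not tested. Of the 4 lineage surface genes tested, Itgam and Ptprc, the pan-leukocyte gene of CD45, were called lower, against 16.8% of all genes tested. The progenitor gene Kit was at 36.6 to 54.4 FPKM in WT and at 18.7 to 31.1 FPKM in the libraries labelled cKO (−0.86, limma adjusted p = 0.00170), without overlap but short of the 2-fold limit. Of the other progenitor genes, Cd34 was called lower (−3.32, limma adjusted p = 2.08e-04), with 12.1% of the WT mean left, and Ly6a was not called (−1.34, limma adjusted p = 0.0787).

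The genes most like the classical chains and Cd74 were sought among the 12344 non-member genes that averaged 1 FPKM or more, by the mean absolute difference of the centred log2 profiles over the 10 libraries. The nearest were Ltb, which encodes lymphotoxin β, at a mean absolute difference of 0.213, Gimap8 at 0.282, Gimap4 at 0.285, a κ variable segment of immunoglobulin light chains at 0.298 and Iglc2, a λ constant segment, at 0.299. Among the members, H2-Eb1 (0.237) and H2-Aa (0.264) lay closest to that shared profile, which they helped to define. Cd74, which helped to define it too, lay at 0.406 and Ciita at 0.446. H2-Ab1, which also helped to define the profile, lay at 0.624, next to H2-DMa at 0.632 and H2-DMb2 at 0.671. H2-Ob lay at 0.869, and H2-DMb1 was the farthest member at 0.941. The median of the genes compared was 0.932, so by this distance H2-DMb1 was no nearer to the profile than a typical gene. The distance was not scaled by the size of the change, so a gene that fell farther in the same libraries also scored as distant. From highest to lowest, the cKO order of H2-DMb1 was 5, 3, 2, 1 and 4, and that of H2-Aa was 3, 5, 2, 1 and 4. The Ltb values were 3.84, 2.11, 2.60, 2.68 and 2.98 FPKM in WT 1 to 5 and 0.62, 1, 2.71, 0.27 and 2.11 FPKM in cKO 1 to 5, with the same cKO order as H2-Aa. These distances rest on 10 libraries and include the difference between the groups, and they are given as a description.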

How the data were processed

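RNA-seq of Lin− bone marrow cells was used, with 5 WT and 5 cKO libraries. The authors filtered reads, aligned them to GRCm39 and deposited 1 FPKM value for each gene in each library, with 2 decimals; per the labels the submitters' processing notes name cutadapt 1.9.1, HISAT2 2.0.1 and HTSeq 0.6.1. The annotation, gene lengths and strand setting are not given in the sources used here. FPKM are not counts, so limma 3.58.1 (R 4.3.3; empirical Bayes with a mean trend, two-sided) was run on log2(FPKM + 0.1) in place of a count test, over 18742 genes with a mean of 0.1 FPKM or more, with Benjamini-Hochberg adjustment over all of them. A fold change on this scale understates the change of low genes. A call needed a 2-fold change together with an adjusted p under 0.05. Ratios, and single members where named, were compared by exact permutation tests (scipy 1.17.1). The fitting script was tested on simulated data.

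Groups and replicate numbers came from the labels. Depth was read from the steps of low values in genes with 1 transcript, where 96.8% to 97.1% of values were whole fragments within 0.2; fragments behind a member's value are approximate, since they use the canonical mRNA length. No libraries agreed within sampling noise (lowest chi-square per degree of freedom within a group 3.26). Positions and upstream sequence came from GRCm39 with GENCODE genes. The members and gene lists were chosen with earlier results of these data known, so lists are described by counts and medians only. Named were all members, pathway genes by role, markers by list, the neighbours on chromosome 17, Dhx9 and Kit as checks, and the 5 genes nearest to the shared profile of the classical chains and Cd74; Xist, Ly6g, Cd3e and other single markers were named after their values were seen. Vpreb1 and H2-Ea-ps were not matched by symbol. The alternatives were other pseudocounts, filters, scalings, no variance trend, a replicate block, the p threshold alone, an Xist covariate and each library left out.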

Additional observations from a re-analysis of the deposited data

Results flagged for a closer look

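In 8 of 110 groups of 5 libraries, 1 library lay farther from the other 4 than Dixon's test allows at its 95% level. Chance alone would give about 1 in 20 groups, or 5.5 of 110. Among class II measures, the mean log2 level of the classical chains and Cd74 in WT 5 was 3.01, against 2.63 to 2.72 in the other WT libraries. The paralog H2-Eb2 was at 0.29 FPKM in cKO 3 and at 0 to 0.04 FPKM in the other cKO libraries. Marchf8 was at 12.97 FPKM in WT 3 against 10.36 to 10.89 FPKM in the other WT libraries. Tap1 was at 21.41 FPKM in WT 1, below the 27.1 to 28.06 FPKM of the others. Among dendritic markers, Flt3 was at 5.86 FPKM in cKO 5 against 0.37 to 1.79 FPKM, and Cd209a at 0.24 FPKM in cKO 5 against 0 to 0.04 FPKM. The mean log2 level of the dendritic markers was 2.19 in WT 1 against 2.05 to 2.08. A κ variable segment of immunoglobulin light chains, one of the genes nearest to the classical chain profile, was at 11.45 FPKM in cKO 3 and at 0.93 to 3.24 FPKM in the other cKO libraries.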

How the results depend on the processing

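The calls of H2-DMa, H2-DMb1, H2-DMb2 and H2-Ob held under all 20 alternatives run for each. The members called lower numbered 5 to 8 when each library was left out, 7 with a pseudocount of 0.01, 5 with a pseudocount of 1, with quantile normalization and with the Xist covariate, and 0 members were called higher under any alternative. The members' median change ran from −2.22 to −1.45 without single libraries and was −1.17 with a pseudocount of 1. By adjusted p alone, 19 other genes of the pathway were lower in place of 12, and 2 higher in place of 1. With a pseudocount of 1 the Cd74 to H2-Ab1 ratio difference was −1.34 and lost its call, and the Ciita to H2-Ab1 difference turned to 0.19, while with 0.01 it was −1.33; the added 1 FPKM exceeds every Ciita value. Without single libraries the differences ran from −1.98 to −1.29 for Cd74 to H2-Ab1, −0.595 to −0.40 for Ciita to H2-Ab1, −1.79 to −1.58 for H2-DMa to H2-Ab1 and 0.71 to 1.01 for H2-Oa to H2-DMa. A mean filter of 1 FPKM left no value for Ciita. Over all genes tested, 862 were called higher and 3153 lower, against 356 and 1486 with a pseudocount of 1 and 1581 and 2245 after quantile normalization, where the share of higher calls went from 21.5% to 41.3% and the median change from −0.11 to 0.10. The replicate numbers are not stated to pair the mice, and same-numbered libraries correlated at −0.01 to 0.117 in their deviations from group means, with 3 of 5 WT libraries closest to their own number. With the replicate block, 6 members were called lower and 0 higher, and the calls over all genes went to 857 higher and 3107 lower. Depth limits H2-Aa and Ciita in cKO 4, at about 3 and 1 fragments. It also limits H2-DMb2 in cKO 1, cKO 2 and cKO 4 (about 4, 7 and 4 fragments). The same holds for Ciita in cKO 1 and cKO 2 (about 7 and 6) and H2-Ob in cKO 4 (about 5). H2-Aa in cKO 1 and H2-Eb1 in cKO 4 rest on about 9 fragments each.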
